A study of Mus musculus with 12 samples.

Results

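The mitochondrial carrier family Slc25 was followed through 4 populations of mouse intestinal epithelial cells sorted by the level of a Sox9-GFP reporter. Its members were taken by name: every row of the table whose symbol starts with Slc25a and a number, kept where the value was at least 10 in at least 3 of the 12 libraries. The rule left 43 genes of the 30265 symbols in the table. Of 48 rows with such a name, 5 fell below the level, namely Slc25a21 with 75 reads over all libraries, Slc25a5-ps with 36, Slc25a41 with 15, Slc25a54 with 13 and Slc25a31 with 7. The rule uses a name and a level, not a difference between populations.

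SLC25 proteins are small carriers of the inner mitochondrial membrane, built from a repeated module of transmembrane helices. Each exchanges or imports its own substrates between cytosol and matrix: nucleotides, phosphate, carboxylates of the citric acid cycle, amino acids, acylcarnitines, cofactors or iron. A few members sit elsewhere, in the outer membrane or the peroxisome. Enterocytes of the small intestine are rich in mitochondria, burn glutamine and glutamate, and release citrulline, steps that need several of these carriers. Many carriers exist as pairs of close paralogs that move the same substrate in different tissues.

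The populations were Sox9 High, Sox9 Sublow, Sox9 Negative and Sox9 Low, each with 3 libraries lettered A to C, all from mice of strain C57Bl/6 and all sorted on the Sox9-GFP reporter, which they share. Each library was made from total RNA of 12000 sorted cells. No source used here gives age, sex or the number of mice behind a library. Whether the letters stand for separate mice is not stated, and p-values therefore cover the spread among these libraries only, which may be technical. A value is a read count divided by the size factor of its library, called normalised reads below.

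Sox9, the gene behind the reporter, averaged 20262 ± 1220 normalised reads in High, 2084 ± 897 in Sublow, 604 ± 191 in Negative and 6601 ± 921 in Low (SD, n = 3 each), in the order of the gates. Enteroendocrine markers summed to 414859 in High against at most 52735 elsewhere, and tuft markers to 85108 against at most 10544. By their mean sums, goblet markers were highest in Sublow at 481884, absorptive markers in Negative at 352493, Paneth markers in Negative at 43358 and active stem markers in Low at 66422. Goblet sums overlapped, with 471819 in Low B and 330380 in Sublow A. Paneth sums overlapped too, with 24244 in Low C and 22510 in Negative A. The Paneth marker Mmp7 averaged 611 in Low and 510 in Negative. All 8 epithelial markers were found in every library. Leukocyte markers summed to 2537 in High against 137 to 155 elsewhere, of which Ptprc alone gave 2469. Adgre1 was also highest in High, at 34.5 against 0.36 to 6.73 elsewhere, while Lyz2, at 7.24 in High, and Itgam, at 11.5, were higher in other populations. Stroma markers summed to 3670 in High, where Vim gave 3519, against 245 to 766 elsewhere. Col1a2 averaged 115 in High and 101 to 250 elsewhere, and Col3a1 0.30 in High and 2.29 to 4.59 elsewhere. The libraries held 11630042 to 17046944 reads, and a floor of 3 reads corresponded to 2.38 to 4.61 normalised reads. In these bulk samples fewer cells of a type and less RNA per cell cannot be told apart, and the part of the markers' differences in the results below was not tested.

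Summed over the members, carrier RNA was most abundant in Negative, where 21 of 43 members had their highest mean, or 48.8%, against 33.4% of all genes. In normalised reads of libraries A, B and C, the 43 members together summed to 24531, 24057 and 25129 in High, 38175, 49204 and 34429 in Sublow, 59223, 72360.5 and 62146 in Negative and 23711, 25128 and 24709 in Low. They made up 0.184% of the reads in High, 0.263% in Sublow, 0.343% in Negative and 0.193% in Low. Every Negative library lay above every library of the other populations, and High and Low overlapped. The 3 adenine nucleotide and phosphate carriers alone gave 25941, 32193 and 26211 of the Negative sums, and 8805, 9114 and 9263 of the Low sums. Transcripts of the mitochondrial genome took 1.47% of the reads in High, 3.51% in Sublow, 4.55% in Negative and 2.89% in Low.

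**Figure D1:**
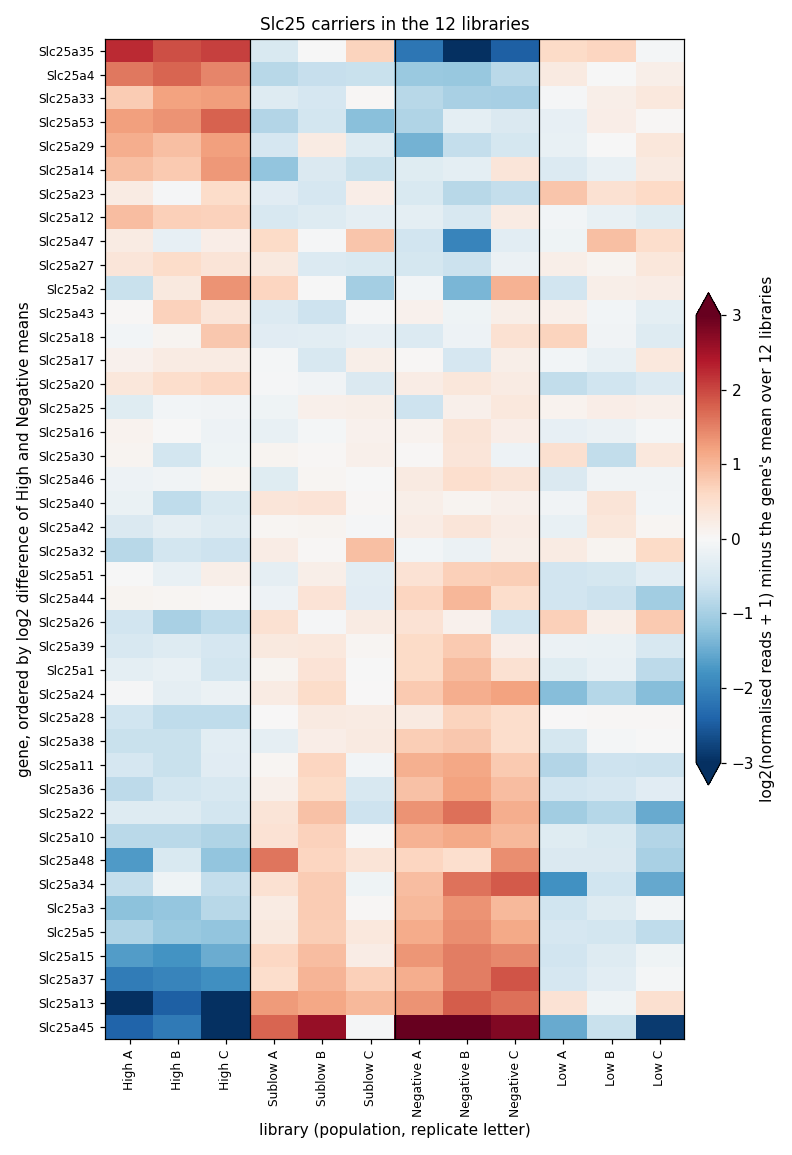
Level of 42 of the 43 members in each of the 12 libraries, as the log2 deviation of log2(normalised reads + 1) from the mean of that gene over all libraries. Rows are genes ordered by the difference of High and Negative, and columns are libraries in the order High, Sublow, Negative and Low; Slc25a35 and Slc25a4 stand at the High end, and Slc25a45 and Slc25a13 at the Negative end.

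Each member was tested with limma on log2(normalised reads + 1) in a model of all 12 libraries, with p-values adjusted by Benjamini-Hochberg over all 16577 genes that passed the same level. A member was called where the adjusted p was below 0.05. Log2 differences are on that scale and given with their SE. Over the 4 populations 35 of 43 members differed (limma F-test), against 69.5% of all genes tested. Among the 8 others were Slc25a2, Slc25a16, Slc25a17, Slc25a18, Slc25a25, Slc25a30 and Slc25a43.

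The high level in Negative was the widest pattern. Between Negative and Low, 29 members were called, 22 higher and 7 lower in Negative, against 57.2% of all genes (26.8% higher and 30.3% lower). Without Low C the number lower was 4. Between High and Negative, 33 members were called, 9 higher and 24 lower in High, against 54.6% of all genes (28.8% higher and 25.8% lower). The members' median log2 difference was 0.39 in Negative against Low, where the median of all genes was -0.05, and -0.62 in High against Negative, where it was 0.03. Between High and Sublow, 28 members were called, 10 higher and 18 lower in High, against 52.0% of all genes (26.7% higher and 25.3% lower). Between High and Low, 20 members were called, 11 higher and 9 lower, a share near the 42.9% of all genes (23.6% higher and 19.3% lower). Between Sublow and Low, 18 members were called, 15 higher and 3 lower in Sublow, against 24.0% of all genes (13.3% higher and 10.7% lower). The libraries did not overlap for 34 members in High against Negative, against 64.9% of all genes, for 30 in Negative against Low, against 66.5%, for 29 in High against Sublow, against 58.6%, for 25 in Sublow against Negative, against 39.8%, for 24 in High against Low, against 60.7%, and for 20 in Sublow against Low, against 37.0%. Comparisons with a population in common share its libraries.

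These directions depend on how libraries are scaled. The deposited values, in units of 1000000, sum to 13.3 to 13.4 in High, 14.5 to 16.6 in Sublow, 17.4 to 20.6 in Negative and 12.3 to 13.2 in Low. Scaling every library to the same total moved the log2 differences. The median shift over all genes was -0.56 in Negative against Low, 0.49 in High against Negative and -0.27 in Sublow against Low. It was 0.29 in Sublow against Negative, 0.20 in High against Sublow and -0.07 in High against Low. On that scale 15 members were higher and 14 lower in Negative than in Low, against 14.7% and 48.6% of all genes, and 14 were higher and 17 lower in High than in Negative, against 44.8% and 15.6%. In Sublow against Low the split became 10 higher and 4 lower, against 7.88% and 19.7% of all genes, and in Sublow against Negative 6 higher and 7 lower, against 23.1% and 3.69%. In High against Sublow it was 11 higher and 13 lower, against 32.8% and 19.1%, and in High against Low 10 and 10, against 21.3% and 20.5%. The members' median then lay at -0.17 in Negative against Low, with all genes at -0.60, and at -0.13 in High against Negative, with all genes at 0.50.

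Calls of single members changed with equal totals. Those lost in Negative against Low were Slc25a20, Slc25a38, Slc25a39, Slc25a46 and Slc25a48, and Slc25a16 and Slc25a28 changed sign. In High against Negative they were Slc25a26, Slc25a32, Slc25a40, Slc25a42, Slc25a44 and Slc25a51, and Slc25a46 changed sign. In Sublow against Negative they were Slc25a3, Slc25a10, Slc25a20, Slc25a34, Slc25a37, Slc25a38, Slc25a44 and Slc25a46. In High against Sublow they were Slc25a1, Slc25a26, Slc25a36, Slc25a38 and Slc25a42, in Sublow against Low Slc25a1, Slc25a3, Slc25a13, Slc25a39 and Slc25a44, and in High against Low Slc25a51. Among the members called with equal totals and not otherwise, Slc25a12, Slc25a17, Slc25a25, Slc25a26, Slc25a32 and Slc25a53 were lower in Negative than in Low. Slc25a17, Slc25a20, Slc25a43 and Slc25a47 were higher in High than in Negative, and Slc25a4, Slc25a23 and Slc25a29 higher in Sublow than in Negative. Slc25a23 was higher in High than in Sublow, Slc25a33 lower in Sublow than in Low, and Slc25a40 lower in High than in Low.

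**Figure D2:**
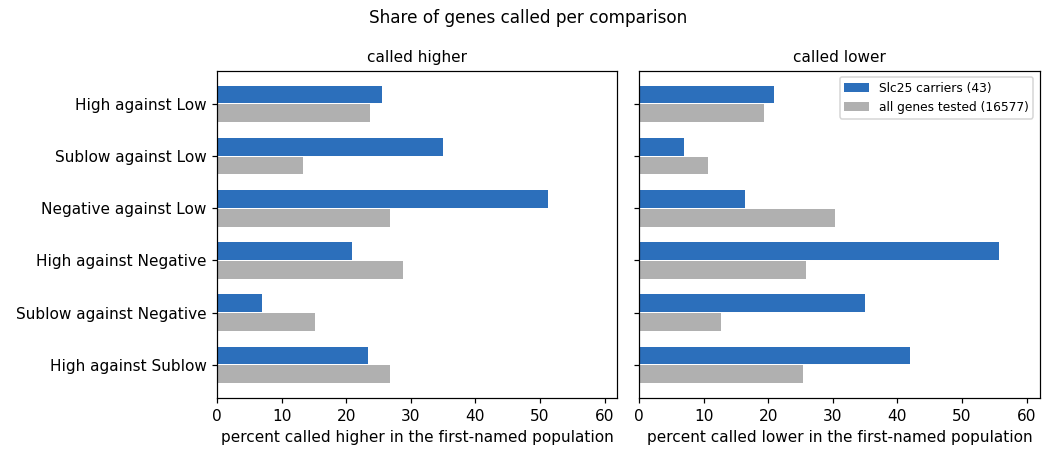
Percent of genes called higher or lower (limma, adjusted p below 0.05) in each of the 6 comparisons, for the 43 members and for all 16577 genes tested. In High against Negative 55.8% of members and 25.8% of all genes were lower in High, and in Negative against Low 51.2% of members and 26.8% of all genes were higher in Negative, splits that move with the scaling of libraries.

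A member was counted as above or below the rest when limma called it that way in all 3 of its comparisons. Negative stood above the rest for 14 members, against 9.33% of all genes, and High below the rest for 9, against 8.84%. High stood above the rest for 7 members, against 15.6% of all genes. Low stood below the rest for Slc25a24 and Slc25a44, against 2.78%, and Negative below the rest for Slc25a33 and Slc25a35, against 8.20%. With equal totals Slc25a3, Slc25a10, Slc25a34, Slc25a37, Slc25a38, Slc25a44, Slc25a46 and Slc25a51 lost a call needed to place Negative above the rest. Slc25a26, Slc25a32 and Slc25a42 lost one needed to place High below, and Slc25a44 one needed to place Low below. With only the 6 libraries of Sublow against Negative fitted, 0 members were lower in Sublow, so that none stood above the rest in Negative. No member was above the rest in Low, where 1.10% of all genes were, or in Sublow, where 0.0603% were above and 0.199% below. Sublow lay between Low and Negative by its mean for 31 of 43 members, or 72.1%, near the 70.9% of all genes. The highest mean was in High for 13 members, or 30.2%, against 35.7% of all genes, and in Sublow for 3, or 6.98%, against 8.67%. It was in Negative for 21, or 48.8%, against 33.4%, and in Low for 6, or 14.0%, against 22.3%.

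Promoter sequence is shown for a pair of paralog pairs whose members differed in opposite directions between High and Negative, as did Slc25a33 and Slc25a36 and Slc25a34 and Slc25a35: the adenine nucleotide translocases Slc25a4 and Slc25a5, and the aspartate-glutamate carriers Slc25a12 and Slc25a13. The windows run from 250 bases before to 50 bases after the start of each gene in RefSeq (GRCm38.p6), 5′ to 3′ on the strand of the gene, and capitals mark the letters of searched motifs. Slc25a4 is at chr8:46211013-46211312 on the minus strand, Slc25a5 at chrX:36795347-36795646 on the plus strand, Slc25a12 at chr2:71367706-71368005 on the minus strand and Slc25a13 at chr6:6217124-6217423 on the minus strand.
Slc25a4: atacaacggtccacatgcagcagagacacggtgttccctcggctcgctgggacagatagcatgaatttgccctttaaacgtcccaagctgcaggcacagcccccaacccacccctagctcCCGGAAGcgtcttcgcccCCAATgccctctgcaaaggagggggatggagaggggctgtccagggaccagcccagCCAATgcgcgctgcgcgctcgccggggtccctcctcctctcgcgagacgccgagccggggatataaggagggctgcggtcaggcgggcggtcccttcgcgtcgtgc
Slc25a5: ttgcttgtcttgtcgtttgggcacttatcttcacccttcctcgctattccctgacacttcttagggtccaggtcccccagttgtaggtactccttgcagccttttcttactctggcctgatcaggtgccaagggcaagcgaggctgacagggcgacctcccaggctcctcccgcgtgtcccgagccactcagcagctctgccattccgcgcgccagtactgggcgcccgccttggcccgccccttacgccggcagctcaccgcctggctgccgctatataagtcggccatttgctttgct
Slc25a12: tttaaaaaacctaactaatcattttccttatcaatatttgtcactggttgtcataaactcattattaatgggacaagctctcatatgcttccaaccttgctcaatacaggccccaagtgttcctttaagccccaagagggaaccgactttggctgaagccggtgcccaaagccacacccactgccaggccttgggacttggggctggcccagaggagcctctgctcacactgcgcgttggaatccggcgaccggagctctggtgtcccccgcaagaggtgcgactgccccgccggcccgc
Slc25a13: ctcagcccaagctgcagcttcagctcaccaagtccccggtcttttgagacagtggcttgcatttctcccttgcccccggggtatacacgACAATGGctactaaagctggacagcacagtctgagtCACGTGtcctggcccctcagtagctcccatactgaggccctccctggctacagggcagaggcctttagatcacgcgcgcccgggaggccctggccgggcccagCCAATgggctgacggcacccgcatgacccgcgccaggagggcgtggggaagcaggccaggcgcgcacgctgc

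The Slc25a4 window held an ETS core and 2 CCAAT boxes, and the Slc25a13 window an E-box, a SOX element and a CCAAT box. None of the searched letters was in the Slc25a5 and Slc25a12 windows. The search covered both strands and 7 motifs, none of which contains another: the ETS core CCGGAAG, the CCAAT box CCAAT, the E-box CACGTG, the SOX element ACAATGG, the NRF1 half-site GCGCATGC, the ERR element TCAAGGTCA and the HNF4 element CAAAGTCCA. RefSeq gave 42 windows for 33 of the 43 members. The ETS core was in 14.3% of the members' windows and 8.86% of all 32851 windows, the E-box in 16.7% and 7.15%, the CCAAT box in 50% and 37.4%, and the SOX element in 2.38% and 3.66%. The NRF1, ERR and HNF4 letters were in no window of a member, and in 2.71%, 0.423% and 0.475% of all windows. Median GC content was 59.3% in the members' windows and 52.7% in all windows. A match is a description of letters and says nothing of binding.

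Carriers that serve ATP synthesis move adenine nucleotides and phosphate. Slc25a4 and Slc25a5 encode the adenine nucleotide translocases ANT1 and ANT2, which pass ADP into the matrix in exchange for ATP, and Slc25a3 encodes the phosphate carrier. Slc25a4 had 818, 928 and 754 normalised reads in High, 153, 169 and 171 in Sublow, 126, 125 and 156 in Negative, and 332, 273 and 311 in Low. All High libraries lay above all others, and Sublow and Negative overlapped. Slc25a4 was 2.72-fold higher in High than in Low (log2 1.45 ± 0.15, adjusted p = 1.99e-05) and 6.12-fold higher in High than in Negative (log2 2.61 ± 0.15, adjusted p = 3.79e-08). It fell by 0.89 ± 0.15 on the log2 scale in Sublow against Low (adjusted p = 0.00183) and fell by 1.17 ± 0.15 on the log2 scale in Negative against Low (adjusted p = 4.9e-05).

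Slc25a5 ran the other way. It had 4057, 3490.4 and 3307 normalised reads in High, 9280.1, 12702 and 9345 in Sublow, 16486, 19995 and 16753 in Negative, and 5327, 5193 and 4429.8 in Low. The 4 populations did not overlap. Slc25a5 was 4.9-fold lower in High than in Negative (log2 -2.29 ± 0.16, adjusted p = 1.33e-07) and 3.56-fold higher in Negative than in Low (log2 1.83 ± 0.16, adjusted p = 4.93e-06). Its fall in High against Low (log2 -0.46, adjusted p = 0.0305) was lost without High B, High C, Low A or Low B, with an adjusted p of up to 0.106. Processed pseudogenes of Slc25a5 are near-identical to it, and its counts are uncertain where the counting could split reads between them.

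Slc25a3 had 2023, 2130.4 and 2666 normalised reads in High, 5681, 8092 and 4861 in Sublow, 9329, 12073 and 9301 in Negative, and 3146, 3647 and 4523 in Low, with no overlap between populations. It was 4.5-fold lower in High than in Negative (log2 -2.17 ± 0.21, adjusted p = 2.04e-06) and 2.72-fold higher in Negative than in Low (log2 1.44 ± 0.21, adjusted p = 8.99e-05). The log2 ratio of Slc25a4 to Slc25a5 was -2.12 ± 0.20 in High, -5.97 ± 0.24 in Sublow, -7.02 ± 0.29 in Negative and -4.02 ± 0.21 in Low (SD, n = 3 each), and a ratio within a library barely depends on its scaling. Per kilobase of exon, Slc25a5 was the most abundant member, with a mean of 5588 normalised reads per kilobase over the 12 libraries against 1013 for Slc25a3, the next.

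The calcium-sensitive ATP-Mg/phosphate carriers set the adenine nucleotide content of the matrix. Slc25a24 had 2289, 1937 and 2076 normalised reads in High, 2775, 3439 and 2373 in Sublow, 4008, 5012 and 5404 in Negative, and 974, 1285 and 968 in Low. Low lay below all other libraries, Negative above them, and no populations overlapped. Slc25a24 was 4.47-fold higher in Negative than in Low (log2 2.16 ± 0.17, adjusted p = 3.46e-06), 2.65-fold higher in Sublow than in Low (log2 1.41 ± 0.17, adjusted p = 0.000289) and 1.97-fold higher in High than in Low (log2 0.97 ± 0.17, adjusted p = 0.000697). Its relative Slc25a23 ran against it, with 299.5, 249.7 and 372 normalised reads in High, 201, 179 and 292 in Sublow, 185, 143 and 154 in Negative, and 453, 352 and 383 in Low. Slc25a23 fell by 1.30 ± 0.21 on the log2 scale in Negative against Low (adjusted p = 0.00026) and was 1.89-fold higher in High than in Negative (log2 0.92 ± 0.21, adjusted p = 0.00279). Its fall in Sublow against Low (log2 -0.84, adjusted p = 0.0138) was lost without Low A or Sublow B, with an adjusted p of up to 0.0627. Slc25a25 averaged 693 ± 76.1 in High, 827 ± 97.3 in Sublow, 785 ± 241 in Negative and 874 ± 27.7 in Low and was called in no comparison on the deposited scale. With equal totals it was lower in Negative than in Low (log2 -0.77, adjusted p = 0.00347).

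Of the carboxylate carriers, Slc25a1 exports citrate, Slc25a10 exchanges dicarboxylates for phosphate, and Slc25a11 exchanges oxoglutarate for malate. All 3 were higher in Negative than in Low, with a median log2 difference of 1.62, and lower in High than in Negative, with a median of -1.50, and these calls held with equal totals. Among all genes 26.8% were higher in Negative than in Low, and 25.8% lower in High than in Negative. In High against Low none of the 3 carriers was called, where 42.9% of all genes were. Slc25a10 had 607, 607 and 566 normalised reads in High, 1439, 1715 and 1065 in Sublow, 2186, 2334 and 2096 in Negative, and 822, 772 and 582 in Low. It was 3.71-fold lower in High than in Negative (log2 -1.89 ± 0.18, adjusted p = 1.76e-06) and 3.07-fold higher in Negative than in Low (log2 1.62 ± 0.18, adjusted p = 1.62e-05), and High and Low overlapped. Slc25a11 had 410.5, 363 and 459.5 normalised reads in High, 606, 904 and 544 in Sublow, 1204, 1301 and 998 in Negative, and 315, 374 and 369 in Low. It was 3.29-fold higher in Negative than in Low (log2 1.72 ± 0.19, adjusted p = 1.76e-05), and its exons share 8.92% of their bases with Rnf167 on the opposite strand. Slc25a1 averaged 856 ± 96.5 in High, 1234 ± 192 in Sublow, 1749 ± 327 in Negative and 805 ± 151 in Low, and was 2.17-fold higher in Negative than in Low (log2 1.12 ± 0.18, adjusted p = 0.000237). The log2 ratio of Slc25a10 to Slc25a11 was 0.53 ± 0.22 in High, 1.05 ± 0.17 in Sublow, 0.92 ± 0.13 in Negative and 1.03 ± 0.36 in Low.

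The aspartate-glutamate carriers changed in opposite directions. Slc25a12 encodes aralar and Slc25a13 citrin, calcium-activated carriers that send aspartate out of the matrix for glutamate in the malate-aspartate shuttle. Slc25a13 had 14.4, 28.6 and 16.9 normalised reads in High, 393, 362 and 315 in Sublow, 407, 569 and 503 in Negative, and 218, 146 and 223 in Low. High lay far below all other libraries, and no populations overlapped. Slc25a13 was 24.3-fold lower in High than in Negative (log2 -4.60 ± 0.26, adjusted p = 3.12e-08), 17.7-fold lower in High than in Sublow (log2 -4.15 ± 0.26, adjusted p = 1.31e-07) and 9.59-fold lower in High than in Low (log2 -3.26 ± 0.26, adjusted p = 3.25e-06). It was also 2.53-fold higher in Negative than in Low (log2 1.34 ± 0.26, adjusted p = 0.00081).

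Slc25a12 had 583, 504 and 494 normalised reads in High, 222, 236 and 257 in Sublow, 252, 219.9 and 369 in Negative, and 289.8, 265 and 239 in Low. High lay above all other libraries, and the other 3 populations overlapped. It was 1.99-fold higher in High than in Low (log2 0.99 ± 0.19, adjusted p = 0.00105), 1.92-fold higher in High than in Negative (log2 0.94 ± 0.19, adjusted p = 0.000879) and 2.21-fold higher in High than in Sublow (log2 1.14 ± 0.19, adjusted p = 0.000253). The log2 ratio of Slc25a12 to Slc25a13 was 4.71 ± 0.58 in High, -0.58 ± 0.27 in Sublow, -0.83 ± 0.48 in Negative and 0.46 ± 0.39 in Low (SD, n = 3 each). The lowest High library stood at 4.09 and the highest of the others, a Low library, at 0.86.

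Glutamate also enters the matrix through Slc25a22 and Slc25a18. Slc25a22 had 358, 355 and 316 normalised reads in High, 611, 849.7 and 301 in Sublow, 1182, 1464 and 998 in Negative, and 225, 257 and 162 in Low. Negative lay above all other libraries and Low below them, and High and Sublow overlapped. Slc25a22 was 5.66-fold higher in Negative than in Low (log2 2.5 ± 0.31, adjusted p = 3.77e-05), 2.54-fold higher in Sublow than in Low (log2 1.35 ± 0.31, adjusted p = 0.00881) and 3.5-fold lower in High than in Negative (log2 -1.81 ± 0.31, adjusted p = 0.000317). Slc25a18 was low throughout, between 24.3 and 57.4 normalised reads, and was called in no comparison.

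**Figure D3:**
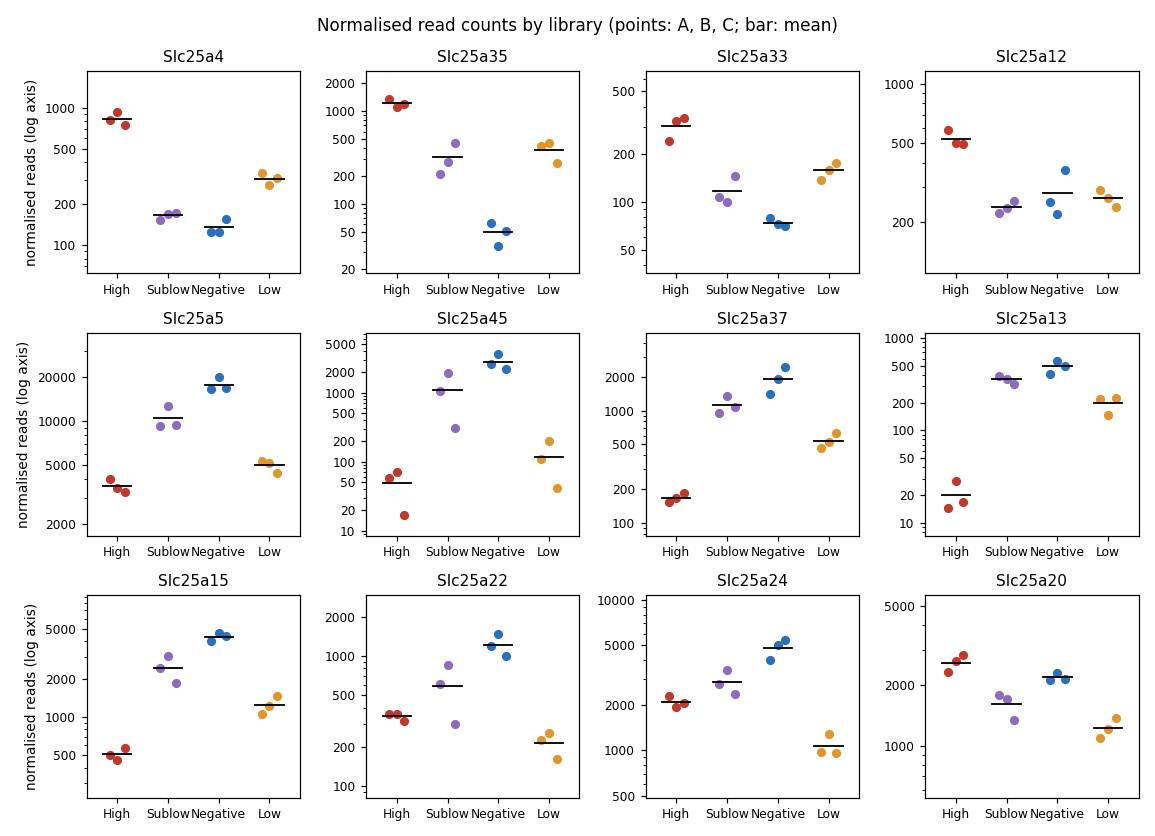
Normalised reads of 12 members in each library on a log axis, with a point for each of the 3 libraries of a population and a bar at the mean, in the order High, Sublow, Negative and Low. Slc25a4, Slc25a35, Slc25a33 and Slc25a12 are highest in High, Slc25a5, Slc25a45, Slc25a37, Slc25a13, Slc25a15, Slc25a22 and Slc25a24 in Negative, and Slc25a20 is lowest in Low.

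Among the other amino acid carriers, Slc25a15 exchanges ornithine for citrulline. It had 498, 461 and 566 normalised reads in High, 2441, 3035 and 1862 in Sublow, 4009.6, 4629 and 4375 in Negative, and 1066, 1219 and 1472 in Low, and the 4 populations did not overlap. Slc25a15 was 8.54-fold lower in High than in Negative (log2 -3.09 ± 0.18, adjusted p = 3.66e-08), 2.45-fold lower in High than in Low (log2 -1.29 ± 0.18, adjusted p = 0.000131) and 3.49-fold higher in Negative than in Low (log2 1.80 ± 0.18, adjusted p = 1e-05). Slc25a29, a carrier of basic amino acids, had 83.0, 71.9 and 91.2 normalised reads in High, 26.5, 45.8 and 29.0 in Sublow, 13.7, 23.1 and 26.2 in Negative, and 32.7, 37.7 and 48.3 in Low. High lay above all other libraries, and Slc25a29 was 3.88-fold higher in High than in Negative (log2 1.96 ± 0.32, adjusted p = 0.000182). Its rise in High against Low (log2 1.04, adjusted p = 0.0179) was lost without High A, High C, Low A or Low B, with an adjusted p of up to 0.0679.

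Slc25a38 imports glycine for haem synthesis and averaged 88.7 ± 13.1 in High, 138 ± 27.3 in Sublow, 212 ± 21.7 in Negative and 115 ± 21.2 in Low. It fell by 1.25 ± 0.22 on the log2 scale in High against Negative (adjusted p = 0.000307). Slc25a44, a carrier of branched-chain amino acids, averaged 724 ± 12.6 in High, 701 ± 203 in Sublow, 1159 ± 207 in Negative and 416 ± 67.4 in Low. It was 2.78-fold higher in Negative than in Low (log2 1.48 ± 0.20, adjusted p = 6.97e-05) and 1.75-fold higher in High than in Low (log2 0.81 ± 0.20, adjusted p = 0.00626). Slc25a2, the second ornithine carrier, stayed between 4.61 and 35.5 normalised reads and was called in no comparison.

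The group of the carnitine carrier held the largest difference of any member, that of Slc25a45 in High against Negative. Slc25a20 imports acylcarnitines for fatty acid oxidation. It had 2330.3, 2649 and 2836 normalised reads in High, 1782, 1713 and 1349 in Sublow, 2142, 2316 and 2160.1 in Negative, and 1095, 1212 and 1376 in Low. Low and Sublow overlapped, and High lay above all others. Slc25a20 was 2.12-fold higher in High than in Low (log2 1.09 ± 0.14, adjusted p = 7.58e-05), 1.62-fold higher in High than in Sublow (log2 0.70 ± 0.14, adjusted p = 0.00113) and 1.8-fold higher in Negative than in Low (log2 0.85 ± 0.14, adjusted p = 0.000236). High against Negative missed the threshold (log2 0.24 ± 0.14, adjusted p = 0.171), and passed it with equal totals (log2 0.73, adjusted p = 0.000872).

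Slc25a45 had 58.6, 71.9 and 16.9 normalised reads in High, 1058, 1943 and 307 in Sublow, 2642, 3674 and 2173 in Negative, and 109, 197 and 42.0 in Low. Negative lay above all other libraries, Sublow above High and Low, and High and Low overlapped. Slc25a45 was 64.7-fold lower in High than in Negative (log2 -6.02 ± 0.71, adjusted p = 1.29e-05), 28.3-fold higher in Negative than in Low (log2 4.82 ± 0.71, adjusted p = 0.000112), 20.1-fold lower in High than in Sublow (log2 -4.33 ± 0.71, adjusted p = 0.00026) and 8.78-fold higher in Sublow than in Low (log2 3.13 ± 0.71, adjusted p = 0.00758). Its size moved with single libraries. Without High C the log2 difference of High and Negative was -5.39 and that of High and Sublow -3.70, and without Low C that of Negative and Low was 4.23. The difference of High and Sublow was -3.74 without Sublow B and -5.07 without Sublow C. The difference of Sublow and Low was 3.87 without Sublow C, 2.54 without Sublow B and 2.54 without Low C.

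Slc25a48, a choline carrier in human cells, had 12.6, 31.3 and 18.6 normalised reads in High, 133, 68.2 and 57.1 in Sublow, 68.6, 61.5 and 115 in Negative, and 31.6, 31.7 and 21.4 in Low. It fell by 1.96 ± 0.41 on the log2 scale in High against Negative (adjusted p = 0.00125), with no overlap, while Sublow and Negative overlapped. Slc25a47 averaged 28.9 ± 5.13 in High, 39.0 ± 11.3 in Sublow, 15.3 ± 8.11 in Negative and 39.0 ± 13.6 in Low.

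Of 7 cofactor carriers 2 were higher and none lower in Negative than in Low, where 26.8% of all genes were higher, and 4 were lower and none higher in High than in Negative, where 25.8% of all genes were lower. The direction turned with equal totals, where 1 was higher and 4 lower in Negative than in Low, and 2 were higher and none lower in High than in Negative. Among all genes 14.7% were then higher and 48.6% lower in Negative than in Low. In High against Negative 44.8% were then higher and 15.6% lower. Slc25a51, which imports NAD, had 1203, 1026 and 1359 normalised reads in High, 1003, 1367 and 967 in Sublow, 1623, 1979 and 1996 in Negative, and 806, 840.1 and 959.7 in Low. It was 2.14-fold higher in Negative than in Low (log2 1.10 ± 0.16, adjusted p = 0.00012). Slc25a26, the carrier of S-adenosylmethionine, averaged 39.6 ± 5.51 in High, 79.9 ± 13.5 in Sublow, 70.1 ± 23.9 in Negative and 102 ± 21.7 in Low, and was 2.51-fold lower in High than in Low (log2 -1.32 ± 0.29, adjusted p = 0.00293). Slc25a32, the folate and FAD carrier, averaged 141 ± 14.2 in High, 303 ± 101 in Sublow, 219.7 ± 28.9 in Negative and 278 ± 50.5 in Low. It fell by 0.96 ± 0.23 on the log2 scale in High against Low (adjusted p = 0.00441). Slc25a42, a coenzyme A carrier, averaged 302 ± 18.1 in High, 398 ± 18.8 in Sublow, 465 ± 27.1 in Negative and 407 ± 78.6 in Low, and fell by 0.62 ± 0.15 on the log2 scale in High against Negative (adjusted p = 0.00341). Slc25a17 of the peroxisome was called in no comparison on the deposited scale. With equal totals it was lower in Negative than in Low (log2 -0.65, adjusted p = 0.0483) and higher in High than in Negative (log2 0.79, adjusted p = 0.0222).

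Pyrimidine nucleotide carriers, which feed mitochondrial DNA and RNA synthesis, also split. Slc25a33 had 242, 327 and 338 normalised reads in High, 108, 99.5 and 146 in Sublow, 79.2, 72.3 and 70.7 in Negative, and 138, 160.1 and 177 in Low. High lay above all other libraries and Negative below them, and Sublow and Low overlapped. Slc25a33 was 4-fold higher in High than in Negative (log2 2.0 ± 0.20, adjusted p = 3.57e-06) and 1.89-fold higher in High than in Low (log2 0.92 ± 0.20, adjusted p = 0.00296), and it fell by 1.08 ± 0.20 on the log2 scale in Negative against Low (adjusted p = 0.000628). Its exons share 14.9% of their bases with Gm13068 on the opposite strand. Slc25a36 had 905, 1061 and 1120.1 normalised reads in High, 1719, 2336 and 1112 in Sublow, 2854, 3579 and 2943 in Negative, and 1041, 1106 and 1239 in Low. Only Negative stood clear, above all other libraries. Slc25a36 was 3.03-fold lower in High than in Negative (log2 -1.60 ± 0.22, adjusted p = 4.84e-05) and 2.76-fold higher in Negative than in Low (log2 1.46 ± 0.22, adjusted p = 0.000131). The log2 ratio of Slc25a33 to Slc25a36 was -1.77 ± 0.11 in High, -3.81 ± 0.82 in Sublow, -5.37 ± 0.23 in Negative and -2.83 ± 0.07 in Low.

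Iron enters mitochondria for haem and iron-sulphur clusters through the mitoferrins, Slc25a37 and Slc25a28. Both were lower in High than in each other population. Slc25a37 had 154, 166 and 184 normalised reads in High, 946, 1346 and 1075 in Sublow, 1398, 1921 and 2456 in Negative, and 463, 526 and 636 in Low, with no overlap between populations. It was 11.1-fold lower in High than in Negative (log2 -3.48 ± 0.21, adjusted p = 4.65e-08), 3.19-fold lower in High than in Low (log2 -1.67 ± 0.21, adjusted p = 6.11e-05) and 3.49-fold higher in Negative than in Low (log2 1.80 ± 0.21, adjusted p = 2.25e-05). Slc25a28 had 192, 173 and 173 normalised reads in High, 297, 353 and 349.7 in Sublow, 355, 463 and 423 in Negative, and 294, 299.7 and 302 in Low. It was 2.29-fold lower in High than in Negative (log2 -1.19 ± 0.14, adjusted p = 1.55e-05) and 1.66-fold lower in High than in Low (log2 -0.73 ± 0.14, adjusted p = 0.00139). Its rise in Negative against Low (log2 0.46, adjusted p = 0.0153) was lost without Negative B, with an adjusted p of up to 0.0697, and turned to a fall with equal totals. Slc25a37 is best known from red cell precursors. The 4 red blood cell markers summed to 68.8 in High, 15.5 in Sublow, 26.5 in Negative and 34.7 in Low. Alas2 made up most of this in High, at 65.6 against 13.9 in Sublow, 10.3 in Negative and 29.6 in Low. The globin Hbb-bs averaged 2.59 in High, 0.29 in Sublow, 12.4 in Negative and 2.96 in Low, and Hba-a1 0.28 in High, 0.67 in Sublow, 2.49 in Negative and 1.09 in Low. The part of these markers in the level of Slc25a37 was not tested.

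The glutathione carriers Slc25a39 and Slc25a40 had smaller differences. Slc25a39 averaged 1123 ± 49.6 in High, 1809 ± 171 in Sublow, 2237 ± 456 in Negative and 1265 ± 142 in Low. It fell by 0.97 ± 0.16 on the log2 scale in High against Negative (adjusted p = 0.000172) and fell by 0.68 ± 0.16 on the log2 scale in High against Sublow (adjusted p = 0.00283). Slc25a40 averaged 84.0 ± 16.9 in High, 141 ± 19.3 in Sublow, 127 ± 3.99 in Negative and 123 ± 24.8 in Low.

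Of the carriers related to uncoupling proteins, Slc25a14 had 72.2, 66.3 and 95.5 normalised reads in High, 16.3, 28 and 23.7 in Sublow, 29.6, 30.8 and 49.1 in Negative, and 28.3, 32.5 and 46.0 in Low. High lay above all other libraries. Slc25a14 was 3.37-fold higher in High than in Sublow (log2 1.75 ± 0.32, adjusted p = 0.000547). Its rise against Low (log2 1.12, adjusted p = 0.0124) was lost without High C or Low A, with an adjusted p of up to 0.0564. Slc25a27 averaged 243 ± 17.5 in High, 162 ± 50.8 in Sublow, 132 ± 23.4 in Negative and 207 ± 18.1 in Low, and was 1.85-fold higher in High than in Negative (log2 0.89 ± 0.22, adjusted p = 0.00369). Slc25a30 was called in no comparison.

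Among members without a settled substrate, Slc25a35 had the largest rise in High against Negative of all members. It had 1358, 1101 and 1183 normalised reads in High, 209, 282 and 457 in Sublow, 62.3, 35.4 and 51.3 in Negative, and 424, 447 and 274 in Low. High lay above all other libraries, Negative below them, and Sublow and Low overlapped. Slc25a35 was 24.5-fold higher in High than in Negative (log2 4.62 ± 0.29, adjusted p = 7.85e-08), 4.02-fold higher in High than in Sublow (log2 2.01 ± 0.29, adjusted p = 0.000111) and 3.24-fold higher in High than in Low (log2 1.69 ± 0.29, adjusted p = 0.000623). It was 7.57-fold lower in Negative than in Low (log2 -2.92 ± 0.29, adjusted p = 1.06e-05). Its exons share 1151 bases, 31.3% of their length, with Rangrf on the opposite strand, and since the sources used here do not say whether the counting used strand, reads of both genes could not be told apart.

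Its close relative Slc25a34 ran the other way at a lower level. It had 38.8, 59.0 and 38.9 normalised reads in High, 88.8, 109.6 and 58.9 in Sublow, 122, 199.9 and 230.5 in Negative, and 17.4, 42.0 and 21.4 in Low. It was 6.87-fold higher in Negative than in Low (log2 2.78 ± 0.37, adjusted p = 5.89e-05) and 3.92-fold lower in High than in Negative (log2 -1.97 ± 0.37, adjusted p = 0.000602). The log2 ratio of Slc25a34 to Slc25a35 was -4.73 ± 0.47 in High, -1.84 ± 0.95 in Sublow, 1.86 ± 0.79 in Negative and -3.84 ± 0.60 in Low, above 0 in Negative alone by its mean. Slc25a53 had 158, 170.5 and 229 normalised reads in High, 35.7, 44.7 and 27.2 in Sublow, 34.8, 53.8 and 49.1 in Negative, and 55.6, 76.2 and 68.2 in Low. High lay above all other libraries, and Slc25a53 was 2.75-fold higher in High than in Low (log2 1.46 ± 0.27, adjusted p = 0.000887) and 3.99-fold higher in High than in Negative (log2 2.0 ± 0.27, adjusted p = 3.76e-05). Slc25a46, a protein of the outer membrane that shapes mitochondria, averaged 637 ± 52.7 in High, 620.5 ± 96.3 in Sublow, 862 ± 71.0 in Negative and 574 ± 72.7 in Low.

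**Figure D4:**
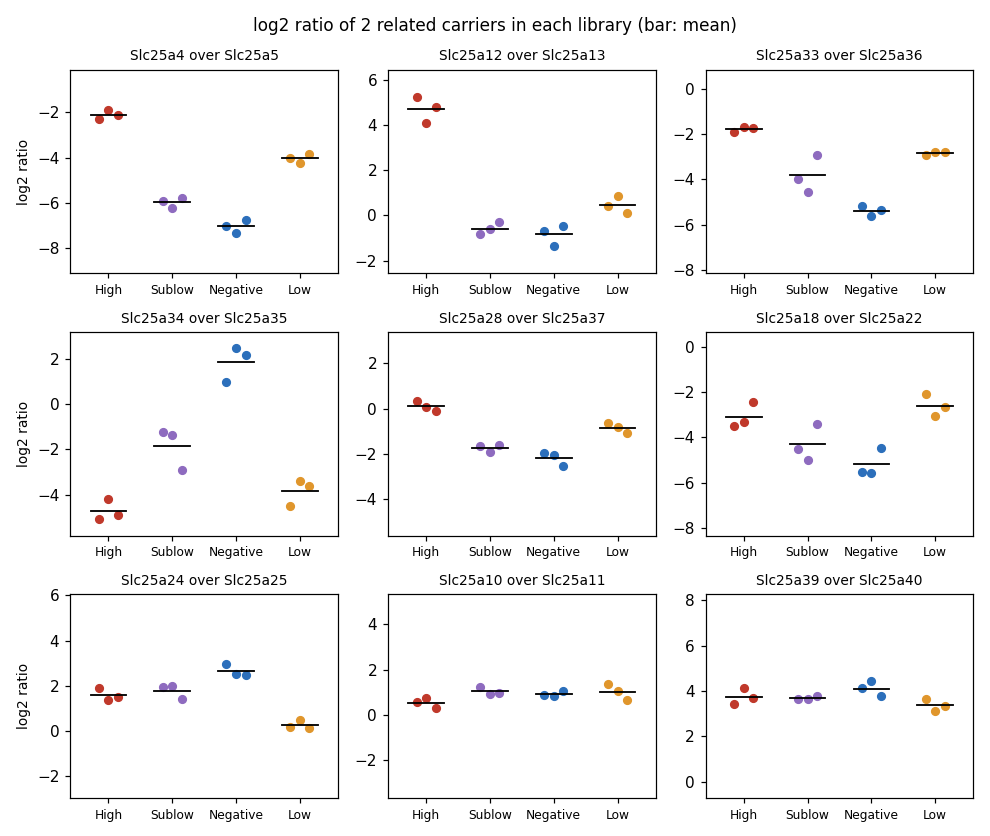
Log2 ratio of the values of 9 paralog pairs in each library, with a point for each of the 3 libraries of a population in the order High, Sublow, Negative and Low. Slc25a4 over Slc25a5 and Slc25a12 over Slc25a13 are highest in High, Slc25a34 over Slc25a35 is highest in Negative, and Slc25a10 over Slc25a11 and Slc25a39 over Slc25a40 vary less.

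Sublow against Negative gave the least settled calls. Of 43 members 18 were called, 3 higher and 15 lower in Sublow, against 27.7% of all genes (15.1% higher and 12.7% lower). The number was 5 without Negative B, 7 without Sublow C, 10 without Sublow A and 1 when only the 6 libraries of the comparison were fitted. The shares of all genes in these fits are not given, so that a change in all genes cannot be told apart. Slc25a35 was 6.09-fold higher in Sublow than in Negative (log2 2.61 ± 0.29, adjusted p = 0.00069), the one call that held in every alternative. Slc25a5 (log2 -0.78, adjusted p = 0.00629), Slc25a15 (log2 -0.85, adjusted p = 0.00742), Slc25a51 (log2 -0.76, adjusted p = 0.00827) and Slc25a24 (log2 -0.75, adjusted p = 0.0102) held when any library was left out. The call of Slc25a22 (log2 -1.15, adjusted p = 0.02) was lost without Sublow C or Negative B, with an adjusted p of up to 0.0826. That of Slc25a36 (log2 -0.92, adjusted p = 0.0126) was lost without Negative B, with an adjusted p of up to 0.0572. The rise of Slc25a33 (log2 0.65, adjusted p = 0.0344) was lost without Sublow A, Sublow C, Negative A, Negative B or Negative C, with an adjusted p of up to 0.119.

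Absorptive markers varied among the Sublow libraries, with sums of 112887 in Sublow A, 228044 in Sublow B and 37046 in Sublow C. The members' values followed the same order, B over A over C, for 16 of 43 genes, or 37.2%, against 24.5% of all genes tested. The sum of all members was 38175 in Sublow A, 49204 in Sublow B and 34429 in Sublow C. The part of the absorptive markers in the comparisons with Sublow was not tested.

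The enzymes and proteins that work beside the carriers were read from 11 lists of 69 genes, of which 67 passed the level. In High against Negative 13 were higher and 40 lower, against 28.8% and 25.8% of all genes. In Negative against Low 37 were higher and 17 lower, against 26.8% and 30.3%. In High against Sublow 10 were higher and 43 lower, against 26.7% and 25.3%, and in High against Low 11 and 28, against 23.6% and 19.3%. In Sublow against Low 25 were higher and 1 lower, against 13.3% and 10.7%, and in Sublow against Negative 12 and 18, against 15.1% and 12.7%. With equal totals the splits were 19 higher and 34 lower in High against Negative (44.8% and 15.6% of all genes), 24 and 26 in Negative against Low (14.7% and 48.6%), 11 and 36 in High against Sublow (32.8% and 19.1%), 10 and 28 in High against Low (21.3% and 20.5%), 17 and 6 in Sublow against Low (7.88% and 19.7%), and 17 and 9 in Sublow against Negative (23.1% and 3.69%).

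All 4 enzymes of the malate-aspartate shuttle were lower in High than in Negative, against 25.8% of all genes, with a median log2 difference of -2.91. Mdh2, the mitochondrial malate dehydrogenase, averaged 2772 ± 190.1 in High and 27376 ± 4089 in Negative (log2 -3.30, adjusted p = 4.46e-07). Got1, the cytosolic aspartate aminotransferase, averaged 169 ± 27.5 in High and 1440.2 ± 125 in Negative (log2 -3.09, adjusted p = 8.48e-07). Citrate synthase, Cs, averaged 1459 ± 96.9 in High and 11241 ± 1946 in Negative (log2 -2.93, adjusted p = 1.38e-07). Of 5 genes of citrate export and lipid synthesis 2 were higher and 3 lower in Negative than in Low, against 26.8% and 30.3% of all genes. Acly, ATP-citrate lyase, averaged 733 ± 122 in Negative and 2134 ± 342 in Low (log2 -1.54, adjusted p = 7.65e-05), and Fasn, fatty acid synthase, 1114 ± 366 in Negative and 2958 ± 462 in Low (log2 -1.45, adjusted p = 0.000308), where the citrate carrier Slc25a1 was higher in Negative.

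Of 10 ornithine, citrulline and proline enzymes 3 were higher and 6 lower in High than in Negative, and 4 and 6 with equal totals. The shares of all genes were 28.8% higher and 25.8% lower, and 44.8% and 15.6% with equal totals. Otc, which makes citrulline from ornithine, averaged 144 ± 15.6 in High and 2698 ± 257 in Negative (log2 -4.22, adjusted p = 6.89e-09). Arg2, a mitochondrial arginase, averaged 103 ± 44.6 in High and 5512 ± 874 in Negative (log2 -5.82, adjusted p = 4.26e-07). Cps1, which supplies carbamoyl phosphate, averaged 11896 ± 3006 in Negative and 33003 ± 2554 in Low (log2 -1.50, adjusted p = 0.000575), lower in Negative where Slc25a15 was higher. Of 5 mitochondrial one-carbon enzymes 3 were lower and none higher in Negative than in Low, and 5 were lower with equal totals. Among all genes 30.3% were lower and 26.8% higher, and 48.6% were lower with equal totals. Mthfd1l, a formate-producing synthetase, averaged 77.6 ± 11.9 in Negative and 537 ± 76.0 in Low (log2 -2.78, adjusted p = 2.93e-06).

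Of 7 genes of the import route that delivers carriers to the inner membrane 5 were lower and none higher in High than in Low, with a median log2 difference of -0.78. In that comparison 19.3% of all genes were lower and 23.6% higher. The small chaperone Timm9 averaged 45.0 ± 7.45 in High and 141 ± 20.4 in Low (log2 -1.63, adjusted p = 0.000348), and Timm10 23.5 ± 4.29 in High and 72.9 ± 12.4 in Low (log2 -1.60, adjusted p = 0.00093). In the same comparison 11 carriers were higher and 9 lower, or 25.6% and 20.9% of 43, near the shares of all genes. Vdac1 and Vdac2, the main metabolite pores of the outer membrane, were lower in High than in Negative (log2 -1.54, adjusted p = 3.22e-07 and log2 -1.51, adjusted p = 2.34e-06), while Vdac3 averaged 2610.2 ± 251 in High and 1382 ± 57.5 in Negative and was higher in High (log2 0.91, adjusted p = 0.000585).

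Among family members under other names, Ucp2 averaged 5984 ± 566 in High and 11626 ± 1351 in Negative (log2 -0.96, adjusted p = 0.000109), Mtch2 1178 ± 64.5 in High and 4413 ± 279 in Negative (log2 -1.90, adjusted p = 9.68e-08), and Mtch1 1709.7 ± 142 in High and 806 ± 21.3 in Negative (log2 1.08, adjusted p = 1.67e-05). Of 7 regulators of mitochondrial biogenesis 5 were lower and none higher in High than in Negative, and 4 were lower and 1 higher with equal totals. The shares of all genes were 25.8% lower and 28.8% higher, and 15.6% and 44.8% with equal totals. Ppargc1a, a transcriptional coactivator, averaged 179 ± 63.8 in High, 1781 ± 1075 in Sublow, 4472 ± 822 in Negative and 439 ± 53.0 in Low and was 10.1-fold higher in Negative than in Low (log2 3.34 ± 0.39, adjusted p = 2.58e-05). The calls of the single partner genes given here with a p-value held under every alternative tried.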

How the data were processed

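RNA-seq values of 12 libraries, 3 for each of 4 sorted populations of intestinal epithelial cells, were read from 1 table of the whole series. Per the labels' protocols, ribosomal RNA was removed and libraries were made from total RNA of 12000 cells. The deposited signal values are gene counts divided by a size factor of each library by the authors: every value is a whole multiple of 1 step per library within 0.01, so that whole reads could be recovered. No source used here gives the aligner, counter, strand setting or annotation. Libraries held 11630042 to 17046944 reads, and floors of 3 reads cover counting error only.

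Genes with at least 10 normalised reads in at least 3 libraries (16577) were tested with limma 3.58.1 (R 4.3.3, trend on) on log2(value + 1) in 1 model of all libraries, with Benjamini-Hochberg adjustment and a threshold of 0.05. The pseudocount understates the change of low genes. On the recovered reads edgeR 4.0.16 and DESeq2 1.42.0 were alternatives. The number of genes called by limma, edgeR and DESeq2 was 7110, 7357 and 7714 in High against Low, 3979, 4169 and 4755 in Sublow against Low, 9474, 9460 and 9677 in Negative against Low, 9054, 9066 and 9300 in High against Negative, 4597, 3995 and 5372 in Sublow against Negative, and 8622, 8770 and 9067 in High against Sublow. The fit was tested on simulated data with 200 genes changed in High alone and the same dispersion for all genes. Far more genes were called in each comparison of the real data, a setting which that test does not cover. Other alternatives were pseudocounts of 0.5 and 5, no filter, a mean of at least 50, equal totals, library weights, the 6 libraries of a comparison alone, a block for the replicate letter, and leaving out each library in turn. Leaving the 3 Sublow libraries out of the fit was added after seeing the data.

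Values per library and full statistics were given for members among the 3 largest rises or falls of a comparison (adjusted p below 0.05, mean of at least 100, libraries not overlapping) and for described paralog pairs. Members given full values beside these (Slc25a3, Slc25a10, Slc25a11, Slc25a14, Slc25a29, Slc25a48, Slc25a51 and Slc25a53) were chosen after their values were seen. The members, gene lists and markers were chosen with earlier results of these data known. A few genes of the family and lists are counted but not reported here by name. Promoter windows are from RefSeq (GRCm38.p6), and exon overlaps from the reference annotation.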

Additional observations from a re-analysis of the deposited data

How the results depend on the processing

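The number of members called stayed within 1.5 times under every alternative in each comparison but Sublow against Negative. There it was 18, and 1 with only the 6 libraries of the comparison in the fit; leaving out 1 library gave 5 (without Negative B) to 20 (without Sublow B), with 7 without Sublow C and 10 without Sublow A, and the cause was not tested. Of the members called, 14 of 20 kept their call under every alternative in High against Low, 10 of 18 in Sublow against Low, 19 of 29 in Negative against Low, 26 of 33 in High against Negative, 1 of 18 in Sublow against Negative and 20 of 28 in High against Sublow. Changes of sign of genes called in neither the main fit nor the alternative were not counted. Among the genes given here, every other change of sign came with equal library totals, which shift all genes. In Negative against Low the log2 difference was then -0.51 for Slc25a12, -0.17 for Slc25a16, -0.10 for Slc25a28, -0.22 for Tomm70a, -0.10 for Timm10b, -0.18 for Timm22, -0.44 for Got2, -0.11 for Asl, -0.43 for Ppox and -0.23 for Gabpa. In High against Negative it was 0.05 for Slc25a46, 0.47 for Asl and 0.048 for Nfs1. With the replicate letter as a block the members called were 23 in High against Low, 18 in Sublow against Low, 29 in Negative against Low, 33 in High against Negative, 20 in Sublow against Negative and 31 in High against Sublow. Shares of all genes are not given for the block fit or for fits of fewer libraries. In those counts a change in the carriers cannot be told from a change in all genes. The letters were not taken as pairing the samples, since the labels do not say what they stand for. Libraries of the same letter correlated at 0.052 to 0.341 in their deviations from the population means, with 5 of 18 pairs at or below 0.1. Their mean was 0.156. The mean of -0.078 for libraries of different letters is no separate baseline, because deviations cancel within each population and tie it to the same-letter mean. Of 12 libraries, 12 correlated best with their own letter. This is a hint of a shared letter effect from the data and not from the design, and the main fit leaves it out. Precision is limited by 3 libraries per population and, for members with few reads such as Slc25a2 and Slc25a18, by depth.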
